A study of Bos taurus with 12 samples.

Results

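Long-chain fatty acids that enter or arise within a cell are carried through the cytosol by fatty acid binding proteins (FABP) and are made available to metabolism by long-chain acyl-CoA synthetases (ACSL), which join them to coenzyme A. The acyl-CoA esters so formed are bound by the acyl-CoA binding protein, encoded by DBI, and pass to triglyceride assembly, membrane lipid synthesis or oxidation. In the lactating mammary gland (MG), the greater part of this traffic ends in the triglyceride of the milk fat globule. FABP3, FABP4 and FABP5 differ in the tissues they are best known from, which are heart and lactating MG for FABP3, adipocytes, macrophages and capillary endothelium for FABP4, and skin for FABP5. The ACSL isoforms differ in their place in the cell and in their preferred fatty acids.

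The genes described are FABP3, FABP4, FABP5, ACSL1, ACSL3, ACSL4, ACSL5, ACSL6 and DBI, 9 in all, chosen by name, and their probes are all those whose RefSeq transcript belongs to one of these symbols. Of the 9 genes, 8 were matched to a probe, by 22 of the 43653 non-control probes of the array and among 12787 genes with a symbol. ACSL4 was not matched to a probe and has no value here. After the filter on dim probes, 17 of the 22 probes and 7 of the 9 genes were tested, out of 19406 probes and 7932 genes. The 2 probes of ACSL6 did not pass this filter. The filter asked that the scanner software call a probe well above background on all 6 arrays of CONT, of REST, or of both.

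The samples were MG biopsies of multiparous midlactation Holstein cows, hybridised to one-colour (Cy3) bovine arrays with 1 array per RNA sample. CONT is the biopsy taken on day 0, when the cows ate a lactation diet ad libitum, and REST is the biopsy taken on day 6 of a restriction of the feed to 50% of the net energy that the cow needed for lactation. The labels name 6 cows, each with 1 CONT and 1 REST array, whereas the text of the series counts 5, so the changes, the counts of calls and the paired differences of the members were also computed without each cow in turn. The methods of the study state that a Holstein cow with mastitis was left out of the experiment, without naming it, and whether its arrays are among those used here is not known. All cows were sampled first as CONT and then as REST, alternating between the sides of the rear udder, and no unrestricted cow was sampled on day 6, so that restriction, time, side and the earlier biopsy cannot be told apart. The tissue is a mixture of cells, and a lower signal of a gene from fewer cells of a type and from less RNA per cell cannot be told apart. The labelled tissue carried its defining transcripts: all 7 milk protein genes with a probe were tested, and their mean level lay between 9.16 and 9.45 in CONT and between 8.89 and 9.33 in REST, on the scale given next.

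Normalized signals are log2 intensities relative to the 75th percentile of their own array, so a difference of -1 is a halving relative to that percentile. Before this shift every cow had its brighter array in REST (6 of 6), with a mean difference of 0.29 and an SD of 0.10 on the log2 scale, and all changes given are relative to it. There were 3 slides, slide 1 holding cows 1 and 2, slide 2 holding cows 3 and 4, and slide 3, the dimmest, holding cows 5 and 6. Its arrays had 41.9 to 48.0% of their spots well above background, against 61.8 to 67.9% on the other slides. No spot of the 22 probes was marked as an outlier by the scanner software, and no spot was saturated.

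The question put to these arrays was which of the transcripts changed in the MG when feed was restricted. The fatty acid binding proteins, ACSL1 and DBI were downregulated, and the change of FABP3 was the largest in size among the 7 tested genes, although its differences from the others did not pass their own test. With CONT and REST compared within each cow, 5 of the 7 tested genes passed an adjusted p of 0.1 with their probe of highest signal, all lower in REST: FABP3, FABP4, FABP5, ACSL1 and DBI. Among all tested genes, 9.1% were called lower in REST and 7.12% were called higher. The change of ACSL3 with that probe and of ACSL5 was not called. Of the 17 tested probes, 14 were called lower and none higher, where 8.62% of all tested probes were called lower. Probes of 1 gene share their transcript and are not separate replicates. The median change of the 7 genes was -0.38, and that of all tested genes was -0.01. The count of called genes fell to 1 without cow 4, to 2 without cow 2 and to 3 without cow 6. The calls over all probes, 3101 with all cows, fell to 1190, 1053 and 2582 in these fits. A lower mean in REST was found for 6 of the 7 genes and for 51.3% of all tested genes.

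How many members are called depends on the pairing, the filter and the scaling. Without the cow as a replicate block, 1 of the 7 genes was called, FABP3, together with 4 of the 17 probes, which were the 3 of FABP3 and the second of ACSL3. The background was then 2.77% of genes and 2.68% of probes called lower. The changes themselves are the same in both fits, and only the error differs. With the slide as a block, 2 genes were called, FABP3 and DBI. With no filter on dim probes 1 gene was called, FABP3. With no shift between arrays 2 genes were called, FABP3 lower and ACSL5 higher. Over all probes, 1901 of 19406 were called with the slide as a block, 384 of 43653 with no filter and 11729 of 19406 with no shift, against 3101 of 19406 in the fit reported.

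**Figure D1:**
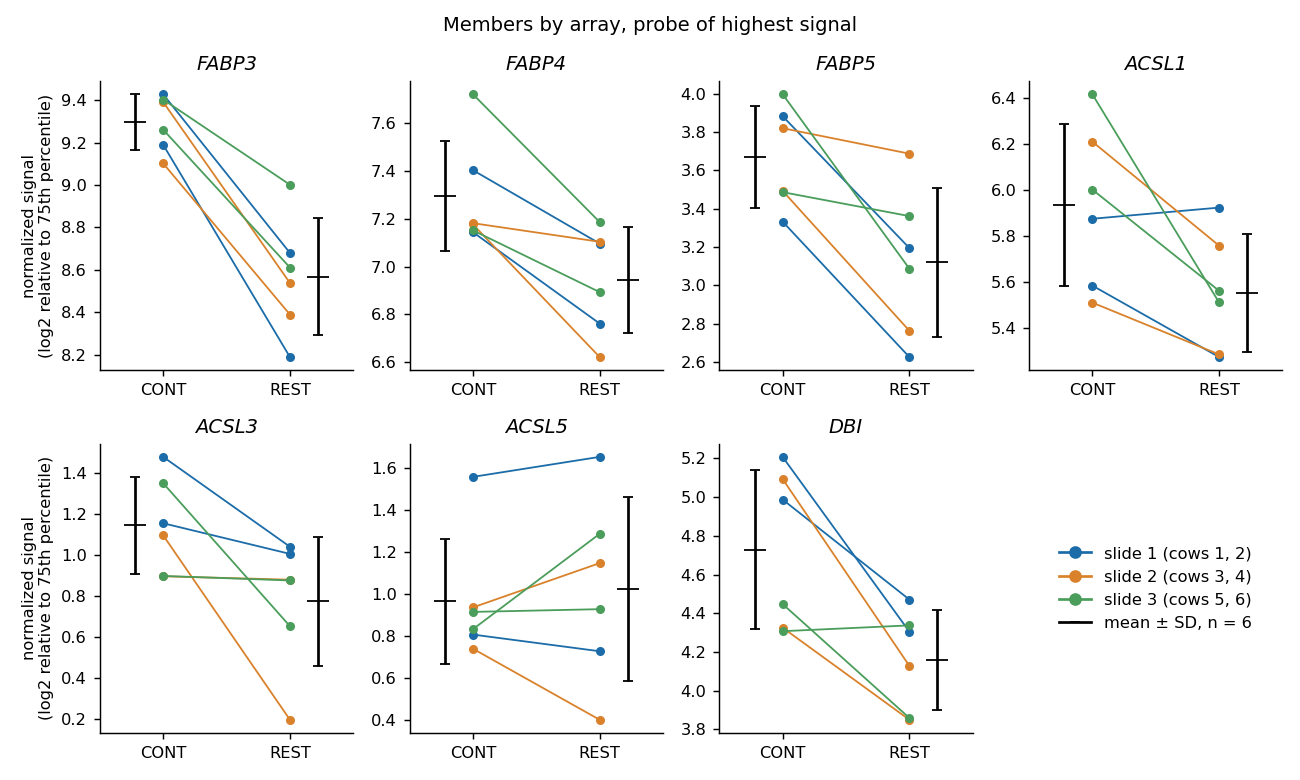
Normalized signal (log2 relative to the 75th percentile of the array) of the probe of highest signal of each of the 7 tested genes, with CONT and REST of a cow joined by a line, coloured by slide, and the mean ± SD of 6 arrays beside each group. The axes have separate ranges and do not start at 0. All 6 lines fall for FABP3, FABP4, FABP5 and ACSL3, 5 of 6 fall for ACSL1 and DBI, and 2 of 6 fall for ACSL5, and the groups are apart only for FABP3. Of all tested probes, 9.64% were lower in every cow.

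FABP3 (NM_174313) encodes the heart-type fatty acid binding protein. Its signal in CONT had a lowest value of 9.10, a median of 9.33 and a highest value of 9.43, and in REST the values were 8.19, 8.57 and 9.001. Every REST array was below every CONT array, and the highest REST value belonged to cow 6, on the dim slide. The mean was 9.30 ± 0.13 in CONT and 8.57 ± 0.28 in REST (SD, n = 6). The log2 change was -0.73 (SE 0.09, 95% interval -0.94 to -0.52), with an adjusted p of 0.00723 in limma, and the REST signal was 60.4% of the CONT signal (interval 52.2 to 69.8%).

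FABP3 was lower in 6 of 6 cows, with changes from -1.001, in cow 2, to -0.40, in cow 6. The other 2 probes of FABP3 gave changes of -0.70 and -0.76, and neither had groups that overlapped. Of all tested probes, 9.64% were lower in every cow and 1.48% had every REST array below every CONT array. Without the block, the adjusted p of the 3 probes was 0.0129, 0.00722 and 0.00655. Mean changes within slides 1, 2 and 3 were -0.87, -0.78 and -0.53. FABP3 was called without any 1 of the cows, with a change between -0.79 and -0.67.

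FABP4 (NM_174314) encodes the adipocyte-type binding protein and was read by 1 probe. CONT values ran from 7.14 through a median of 7.18 to 7.72, and REST values from 6.62 through 6.99 to 7.19. Cow 6 had the highest value of each group, and the groups overlapped, although each cow was lower in REST than in CONT. The mean fell from 7.30 ± 0.23 to 6.94 ± 0.22 (SD, n = 6). The change was -0.35 (SE 0.09, interval -0.55 to -0.15), with an adjusted p of 0.0455 with the cow as a block and 0.195 without it. The REST signal was 78.3% of the CONT signal. The decrease was between 0.08, in cow 3, and 0.55, in cow 4, and the slide means were -0.34, -0.32 and -0.40. The call did not survive the removal of cow 1 (-0.36, adjusted p 0.101), cow 2 (-0.35, 0.125), cow 4 (-0.31, 0.132) or cow 6 (-0.32, 0.104).

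FABP5 (NM_174315) encodes the epidermal-type binding protein. CONT values were 3.33 at the lowest, 3.66 at the median and 3.999 at the highest, against 2.63, 3.14 and 3.69 in REST. The groups overlapped, with the REST array of cow 3 above the CONT arrays of cows 2, 4 and 5, and that of cow 5 above the CONT array of cow 2. The mean was 3.67 ± 0.27 in CONT and 3.12 ± 0.39 in REST (SD, n = 6). The change was -0.55 (SE 0.12, interval -0.83 to -0.27), with an adjusted p of 0.0351 with the block and 0.136 without it, and the REST signal was 68.3% of the CONT signal.

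With this first probe of FABP5 the 6 cows fell by unequal amounts. The decrease was 0.13 in cows 3 and 5 and between 0.69 and 0.91 in the other 4. The other 2 probes had changes of -0.45 and -0.43 (adjusted p 0.0609 and 0.0706), and in both cow 3 was higher in REST, by 0.08. With the second probe cows 1 and 5 were close to each other, at -0.32 and -0.27. All 3 probes were called with the block and none without it. The slide means of the first probe were -0.70, -0.43 and -0.52. Its call was lost without cow 2 (-0.52, adjusted p 0.108) and without cow 4 (-0.51, 0.105).

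ACSL1 (NM_001076085) encodes a synthetase of the endoplasmic reticulum and outer mitochondrial membrane and had 6 probes, all tested. With the brightest, CONT values ran from 5.51 through a median of 5.94 to 6.42, and REST values from 5.27 through 5.54 to 5.92. The groups overlapped, and the highest REST value, in cow 1, was above the CONT value of the same cow. The mean was 5.93 ± 0.35 in CONT and 5.55 ± 0.26 in REST (SD, n = 6). The change was -0.38 (SE 0.12, interval -0.65 to -0.11), with an adjusted p of 0.0823 with the block and 0.266 without it, and 5 of 6 cows were lower. Slide means were -0.13, -0.34 and -0.67. The call was lost without cow 2 (-0.40, adjusted p 0.172), cow 3 (-0.41, 0.115) or cow 4 (-0.37, 0.186). It was also lost without cow 5 (-0.28, 0.126) or cow 6 (-0.37, 0.160), and was retained only without cow 1 (-0.47, 0.0794). Without cow 2 or cow 3 the decrease was larger than with all cows. Calls over all probes fell from 3101 to 1053, 2353, 1190 and 2582 without cows 2, 3, 4 and 6, and rose to 3235 without cow 5.

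The probes of ACSL1 fell into 2 sets. The 4 brighter probes had changes between -0.38 and -0.28, of which 3 were called, and the 2 dimmer ones had changes of -0.52 and -0.49 (adjusted p 0.00927 and 0.0109). In cow 1 the 4 brighter probes lay between -0.05 and 0.05, while the dimmer ones read -0.60 and -0.50. In cow 5 the order was turned, with -0.91 to -0.63 in the brighter set and -0.47 and -0.34 in the dimmer one. All 6 cows were lower with each of the 2 dimmer probes. The files give the same transcript for all 6 probes, and what the sets read in common or apart was not tested. Without the block, none of the 6 was called.

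ACSL3 (NM_001205468), a synthetase of the endoplasmic reticulum and lipid droplets, had 3 probes, 2 of them tested. The brighter one had CONT values from 0.90 through a median of 1.12 to 1.48 and REST values from 0.20 through 0.88 to 1.04, with groups that overlapped. Its change was -0.37 (SE 0.13, interval -0.67 to -0.07), and it was not called (adjusted p 0.116), although 6 of 6 cows were lower, with 2 of them, cows 4 and 5, at -0.02. The second probe, with values of 0.60 ± 0.29 in CONT and -0.07 ± 0.29 in REST (SD, n = 6), had a change of -0.67 (SE 0.12) and was called, with an adjusted p of 0.0193 with the block and 0.0505 without it. Cow 4 differed most between the probes, with -0.02 in the first and -0.97 in the second. The mean of both probes had a change of -0.52 and was called (adjusted p 0.0269). The first probe alone was called without cow 5 (-0.44, adjusted p 0.0941). The last probe was well above background on 2 CONT and 3 REST arrays.

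ACSL5 (NM_001075650), a synthetase best known from intestine and mitochondria, had 3 probes, of which 1 was tested. CONT values ran from 0.74 through a median of 0.87 to 1.56, and REST values from 0.40 through 1.04 to 1.65. Cow 2 was the highest array of each group, and the groups overlapped over most of their range. The change was 0.06 (SE 0.11, interval -0.18 to 0.30; adjusted p 0.754), with a lower value in REST in 2 of 6 cows. The interval leaves room for a change in either direction and does not show that ACSL5 was constant.

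ACSL6 encodes an isoform best known from brain. Its brighter probe was well above background on 3 CONT and 3 REST arrays, and the other on none (0 of 6 and 0 of 6), so no fold change is given.

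DBI (NM_001113321), the acyl-CoA binding protein, was read by 1 probe. CONT values were 4.31 at the lowest, 4.72 at the median and 5.21 at the highest, and REST values were 3.85, 4.22 and 4.47. The CONT arrays of cows 1, 2 and 4 stood above all REST arrays, while those of cows 3, 5 and 6 lay within the REST range. The mean was 4.73 ± 0.41 in CONT and 4.16 ± 0.26 in REST (SD, n = 6). The change was -0.57 (SE 0.13, interval -0.86 to -0.28), with an adjusted p of 0.0360 with the block and 0.132 without it, and the REST signal was 67.4% of the CONT signal. DBI was lower in 5 of 6 cows, with cow 5 at 0.03 and the others between -0.97 and -0.48. Slide means were -0.71, -0.72 and -0.28. The call was lost without cow 4 (-0.49, adjusted p 0.104).

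**Figure D2:**
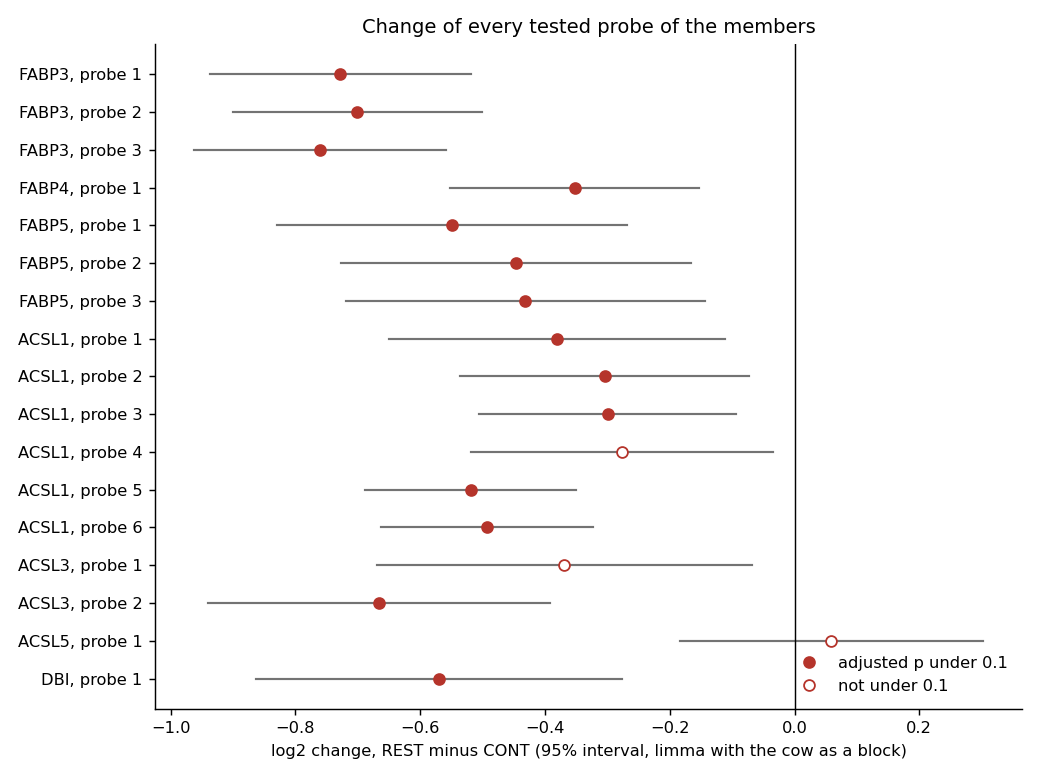
Log2 change (REST minus CONT) of each of the 17 tested probes with its 95% interval from limma with the cow as a block. Probes of a gene are numbered from the highest to the lowest mean signal, and filled points have an adjusted p under 0.1. The 3 probes of FABP3 lie between -0.76 and -0.70, and the 1 probe whose interval spans 0 is that of ACSL5.

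**Figure D3:**
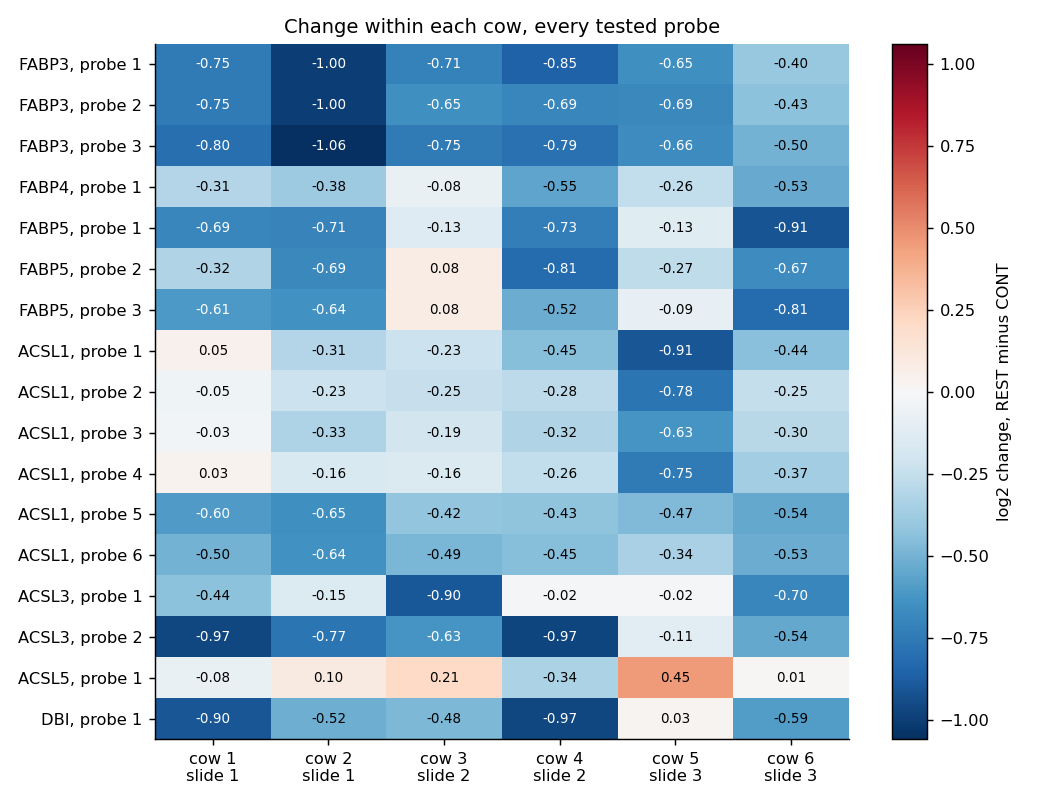
Log2 change within each of the 6 cows (columns, with the slide) for each of the 17 tested probes (rows), with a colour scale centred on 0. The rows of FABP3 are below 0 in every cow, the brighter 4 probes of ACSL1 are near 0 in cow 1 and lowest in cow 5, and DBI is near 0 in cow 5 alone.

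With the probe of highest signal, the members differed in which cow changed most, where each change is from 1 pair of arrays. Cow 2 had the largest decrease of FABP3, cow 4 that of FABP4 and DBI, cow 6 that of FABP5, cow 5 that of ACSL1 and cow 3 that of ACSL3 (first probe). No cow was thus the most changed for all of them. Cow 5, for example, had the largest decrease of ACSL1 (-0.91), the largest rise of ACSL5 (0.45), and little change of FABP5 (-0.13), ACSL3 (-0.02) and DBI (0.03). Other probes of a gene could name another cow. Both dimmer probes of ACSL1 fell most in cow 2 (-0.65 and -0.64). The second probes of FABP5 and ACSL3 fell most in cow 4 (-0.81 and -0.97).

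Whether one member changed more than another was tested within cows, for FABP3 against each other tested member and for ACSL1 against the other tested ACSL genes, which gave 8 pairs. The exact sign-flip test (two-sided) over 6 cows cannot give a p below 0.03125, and no pair passed 0.1 after adjustment over the 8. FABP3 fell further than ACSL5 in 6 of 6 cows, with a mean difference of -0.79 and an SD of 0.30 (log2, n = 6; exact p = 0.03125, adjusted 0.25). It fell further than FABP4 in 5 of 6 cows, with a difference of -0.38 ± 0.28 (exact p = 0.0625, adjusted 0.25). The differences between FABP3 and FABP5 (-0.18 ± 0.40) and between FABP3 and DBI (-0.16 ± 0.37) were smaller than their spread over cows. ACSL1 and ACSL3 differed by -0.01 ± 0.59, a spread too wide to call them alike. With the mean over all tested probes of each gene, 3 pairs had an adjusted p of 0.0833, each in the same direction in 6 of 6 cows: FABP3 fell further than ACSL1 (-0.35 ± 0.26), FABP3 further than ACSL5 (-0.79 ± 0.31), and ACSL1 further than ACSL5 (-0.44 ± 0.38).

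Across the 12 arrays, the normalized signals of the members varied together to unequal degrees. These correlations are descriptions, since the arrays share cows, slides and the difference between the periods. FABP4 and FABP5 had the highest Pearson r of any pair of members, 0.83, followed by FABP3 and FABP4 with 0.77 and by ACSL3 and DBI with 0.70. ACSL5 ran against ACSL1, with r = -0.60, and was near 0 with ACSL3 (-0.05).

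The genes whose signals were most like those of a member, among 7930 genes and over the same 12 arrays, were as follows. For FABP3 they were ACSS1 (r = 0.988), which encodes the mitochondrial acetyl-CoA synthetase, IBA57 (0.972) and NDUFA7 (0.963). For FABP4 they were PGP (0.905), MVD (0.905) and APLNR (0.904), and for FABP5 they were IDI1 (0.899), RCN1 (0.893) and DBN1 (0.877). The genes most like ACSL1 were AGGF1 (0.916), TMEM117 (0.914) and MRPL58 (0.907), and those most like ACSL3 were NHERF1 (0.899), MS4A13 (0.875) and LAMTOR5 (0.869). Among the genes most like ACSL5 were LOC614871 (0.917) and CD48 (0.900), and DBI was most like RNF7 (0.935), EBP (0.928) and COX6B1 (0.902). The 12 arrays include the difference between the periods, so a gene that is most like a member tends to share its change by that choice alone, as ACSS1 (-0.89) with FABP3 and IDI1 (-1.27) with FABP5.

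Other genes of the FABP family with a probe were dim. FABP1 and FABP6, further fatty acid binding proteins, and PMP2, the binding protein of myelin, were not well above background on any array. FABP2 was so on 8, FABP7 on 7 and FABP9 on 1 of 12, and none of these passed the filter. FABP3, FABP4 and FABP5 were thus the only FABP genes tested.

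Of 13 other acyl-CoA synthetases with a probe, 10 were tested, 3 were called lower and 1 higher, with a median change of -0.34. The lower ones were ACSS2 (-1.60, SE 0.17, adjusted p 0.00467) and ACSS1 (-0.89, SE 0.10, adjusted p 0.0047), which activate acetate in the cytosol and in mitochondria, and AACS (-0.55, SE 0.17, adjusted p 0.0753), which activates acetoacetate. These 3 act on short substrates rather than long-chain fatty acids. SLC27A1, a fatty acid transport protein with very long-chain acyl-CoA synthetase activity, rose by 0.41 (SE 0.12, adjusted p 0.0741). Without the block, 2 of these 4 calls were retained, ACSS1 and ACSS2.

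Among 6 other tested acyl-CoA binding proteins, 1 was called in each direction, SCP2 with a rise of 0.36 (adjusted p 0.0421) and ACBD6 with a decrease (-0.25, adjusted p 0.0902), and the median was -0.10. SCP2 encodes the sterol carrier protein and a peroxisomal thiolase, and its call alone of the 2 was retained without the block (adjusted p 0.0753). None of the 6 tested acyl-CoA thioesterases, which undo the ACSL reaction, was called (median -0.08, changes between -0.37 and 0.08).

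The steps before and after the members were read in the same way. Of 7 tested genes of fatty acid uptake, LPL, the lipase that frees fatty acids from lipoproteins at the capillary wall, was lower (-1.10, SE 0.16, adjusted p 0.00875), as was GOT2 (-0.51, adjusted p 0.00817), a mitochondrial aminotransferase also described as a fatty acid binding protein of the plasma membrane. ANGPTL4, an inhibitor of LPL, rose by 1.56 (SE 0.39, adjusted p 0.0448) in 5 of 6 cows. CD36, a fatty acid receptor of the cell surface, had a change of -0.15 and was not called. The 3 calls were retained without the block, and the median of the list was -0.05.

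Of 14 tested genes of triglyceride assembly and the milk fat globule, 4 were called lower and 1 higher, with a median of -0.06. LPIN1, which encodes a phosphatidate phosphatase, had the largest change (-1.88, adjusted p 0.0047), followed by MFGE8, a globule membrane protein (-0.45, adjusted p 0.0796). GPAT3, a glycerol-3-phosphate acyltransferase, rose by 0.35 (adjusted p 0.0346). Of the 5 calls, 1 was retained without the block, that of LPIN1 (adjusted p 0.0767).

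Of 11 tested lipid regulators, INSIG1, which retains the sterol sensing machinery in the endoplasmic reticulum, was lower (-1.98, SE 0.27, adjusted p 0.00782), and NR1H3, the liver X receptor alpha, was higher (0.41, SE 0.10, adjusted p 0.0476). PPARG, the nuclear receptor for which FABP4 is a well known target gene in adipocytes, had a change of -0.27 (interval -0.58 to 0.05) and was not called (adjusted p 0.252). Both calls were retained without the block, and the median change of the 11 was -0.11.

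**Figure D4:**
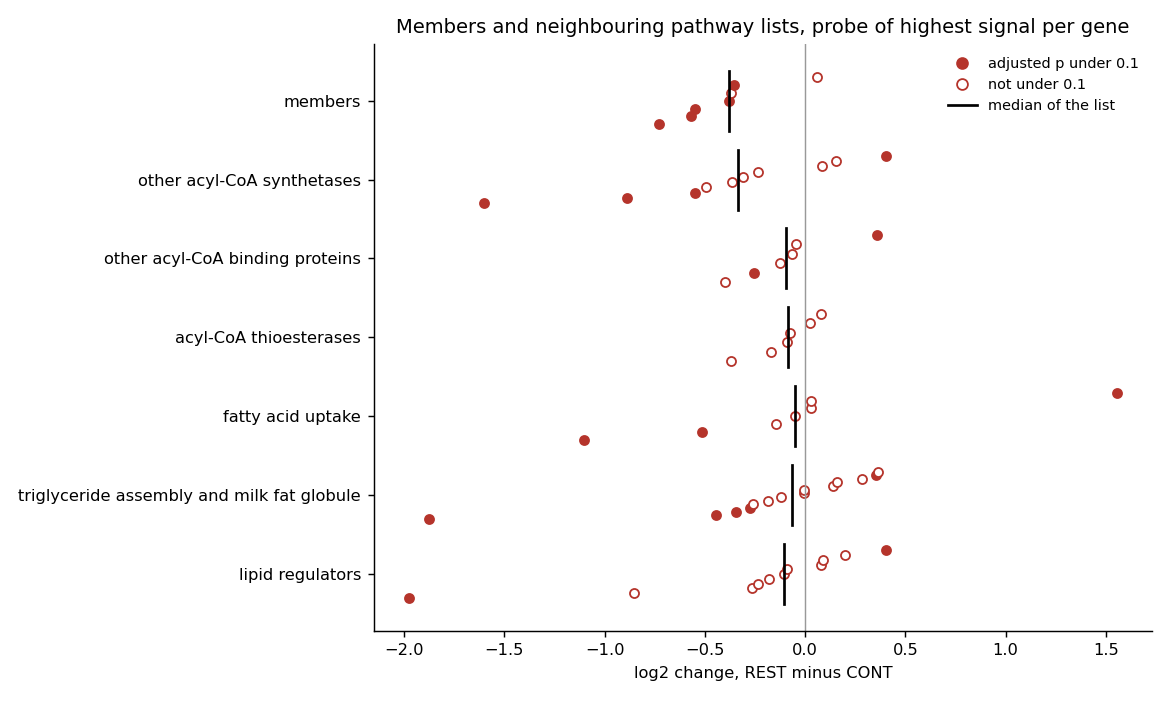
Log2 change (REST minus CONT) of each tested member and of each tested gene of 6 neighbouring lists, 1 probe per gene, with called genes filled and the median of a list as a black bar. The medians are -0.38 for the members, -0.34 for the other acyl-CoA synthetases, and between -0.11 and -0.05 for the rest.

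Because FABP4 and FABP5 are also expressed by adipocytes, endothelium and macrophages, markers of these cells were read in the same arrays. Of 8 adipocyte markers with a probe, 3 were tested, and their mean level was 3.32 to 4.84 in CONT and 3.97 to 4.73 in REST. PLIN1 and RETN were not well above background on any array, LEP was so on 4, CIDEC on 8 and LIPE on 9 of 12. CFD rose (0.78, adjusted p 0.0152) and CIDEA was lower (-0.27, adjusted p 0.0803). The median change of the 3 was that of PNPLA2, 0.61, which was not called (adjusted p 0.135). CIDEA, lower in 6 of 6 cows, is also expressed by lactating mammary epithelium. The mean of the 3 genes was higher in REST in 5 of 6 cows, and FABP4 was lower in 6 of 6. With 3 genes tested, 1 of them also epithelial, the list is a weak reading of adipocytes, and their part in the change of FABP4 was not tested.

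Of 11 tested endothelial markers, 2 were called higher, CLDN5 (0.74, adjusted p 0.0115) and VWF (0.54, adjusted p 0.00727), and 1 lower. Their median change was 0.12, and their mean level was 1.11 to 1.65 in CONT and 1.39 to 1.61 in REST. The mean of the list was higher in REST in 5 of 6 cows. Of 9 tested macrophage markers, 1 was called, C1QA (-0.47, adjusted p 0.0379), with a median of -0.03 and a mean level of 0.18 to 1.09 in CONT and 0.31 to 0.95 in REST. The mean of the macrophage list was lower in REST in 3 of 6 cows.

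Other cell types were read for FABP3, ACSL1 and ACSL5 too. Among luminal epithelial markers, 3 of 10 were called, all higher, KRT8 (0.72, adjusted p 0.00875) and KRT7 (0.53, adjusted p 0.0591) among them, with a median of 0.08 and a mean level of 3.25 to 3.68 in CONT and 3.24 to 3.86 in REST. Of the 7 milk protein genes, 2 were called lower, CSN3 (-0.27, adjusted p 0.0794) and CSN1S1 (-0.26, adjusted p 0.0933), with a median of -0.19. The changes of these 7 genes lay between -0.27 and -0.02, against -0.73 for FABP3, and the difference was not tested.

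Of 11 skeletal muscle markers with a probe, 2 were tested, and MYL2, TNNT1 and TNNC2 were not well above background on any array. CKM was lower (-0.36, adjusted p 0.0712) and ACTA1 was not called. The mean level of the 2 was -0.10 to 0.36 in CONT and -0.29 to 0.21 in REST. Of 9 leukocyte markers, 2 were called higher, CORO1A (0.38, adjusted p 0.0393) and CD3E (0.35, adjusted p 0.0767), with a median of 0.17. None of 2 erythrocyte markers (median -0.37) and none of 3 keratinocyte markers (median -0.14) was called. Without the block, the calls of CLDN5 and VWF were retained and no other marker of these 9 lists was called. The part of these cells in the changes of the members was not tested.

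**Figure D5:**
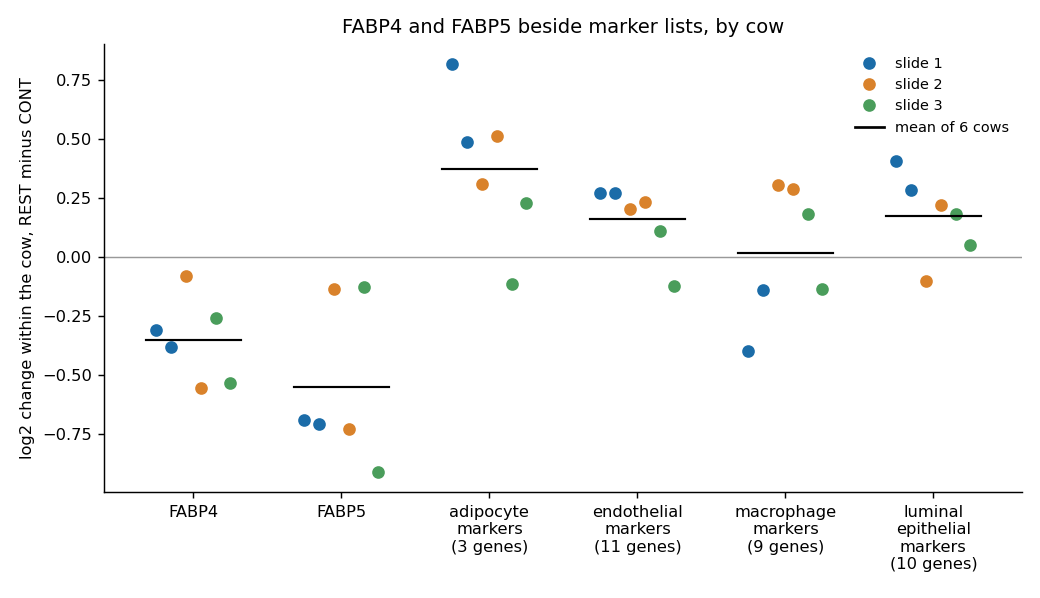
Log2 change within each cow (points, coloured by slide) of FABP4 and FABP5 beside the mean change of 4 marker lists, with the number of tested genes under each list and the mean of 6 cows as a bar. FABP4 and FABP5 are below 0 in all 6 cows. The adipocyte, endothelial and luminal lists are above 0 in 5 of 6 cows each and the macrophage list in 3.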

How the data were processed

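MG RNA of 6 cows was hybridised to one-colour Agilent bovine arrays in CONT and REST (12 arrays, 4 per slide). Per the file headers, the authors extracted intensities with Agilent Feature Extraction 11.0.1.1, and the deposited processed signal is a background-subtracted intensity on a linear scale, without scaling between arrays. The deposited series table held the same intensities in all 45220 cells of each array. The methods of the study describe a 75th percentile shift and moderated tests adjusted by the Benjamini-Hochberg method, without naming a pairing of cows.

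Repeat spots were averaged, spots marked as outliers left out, and log2 values shifted to the 75th percentile of the array. Symbols came from RefSeq identifiers through a reference gene table (ARS-UCD2.0), which named 62.2% of probes. Positions and probe sequences are not reported here. Testing used limma 3.58.1 (lmFit, eBayes) in R 4.3.3 with the cow as a fixed block, and p-values were adjusted over the 19406 probes tested, and an adjusted p under 0.1 was called. A gene was represented by its tested probe of highest mean signal. The labels give the animal of each array. Deviations from the group means, set side by side for CONT and REST of 1 cow, correlated with r between 0.356 and 0.574, and those of different cows with r between -0.33 and 0.134. The scripts were tested on simulated data. Python 3.11.15, pandas 2.3.3, numpy 2.4.6 and matplotlib 3.10.9 were used. Precision is limited by the number of arrays.

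The members and lists were chosen with earlier results of these data known. Of each pathway list, at most 3 called genes with the largest changes were named, of each marker list at most 2, and for each member the 3 genes of highest r. Some genes within the rule, and 1 list of related binding proteins, are not reported here. FABP1, FABP2, FABP6, FABP7, FABP9, PMP2, SLC27A1, CD36, PPARG, ACTA1, PNPLA2 and the adipocyte and muscle markers that were not tested were named outside this rule, after their values were seen. Alternatives covered normalization, background correction, filters, moderation, pairing and each cow left out.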

Additional observations from a re-analysis of the deposited data

Results flagged for a closer look

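The CONT array of cow 2 stood apart for ACSL5. Its normalized signal was 1.56, and the other 5 CONT arrays lay between 0.74 and 0.94. The gap to the nearest array was 0.76 of the range of the group, above Dixon's critical value for a group of 6. The REST array of the same cow was also the highest of its group, with 1.65. Among 14 groups of values examined in this way, 7 genes in CONT and in REST, this was the only such array (1 found). Chance alone passes about 1 group in 20, so 1 find among 14 groups is not unusual. Without cow 2 the change of ACSL5 was 0.05 (adjusted p 0.849), against 0.06 with all cows. It was 0.14 without cow 4 and -0.02 without cow 5, not called in either. The sign of this change was negative in 3 of 29 settings.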

How the results depend on the processing

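The 28 alternatives were set against 5 called genes and 14 called probes among the members. FABP3 was lower and called in all 29 settings, counting the reported one, with changes between -0.83 and -0.43. The other decreases kept their direction in all 29, and DBI was called in 18, FABP5 in 16, FABP4 in 13, ACSL1 in 10 and ACSL3 in 4. Fewer members were called without the replicate block (1 gene, 4 probes), with neither moderation nor block (1 gene, 4 probes), with the slide as a block (2 genes, 7 probes) and with no filter on dim probes (1 gene, 5 probes, over 43653 probes). More were called with the cow as a random block and with eBayes with trend and robust (6 genes, 15 probes each) and with gene means (6 genes). Over all probes the random block called 3535 and the trend and robust fit 3495 of 19406, against 3101 in the fit reported. Gene means called 2170 of 13232 genes or probes without a symbol. A median shift (4 genes, 11 probes) and normexp (4 genes, 12 probes) lost ACSL1 (adjusted p 0.102 and 0.105). They called 2914 and 3445 of all 19406 probes. Over all probes, the fit with neither moderation nor block gave 3196 unadjusted p under 0.05 and 732 calls after Benjamini-Hochberg. Leaving out 1 cow gave 1 to 5 genes and 6 to 12 probes with the block (the fewest without cow 4), and 1 gene and 3 to 4 probes without it. Over all probes, these fits gave 1053 to 3235 calls with the block and 189 to 612 without it. Alternatives chosen after seeing the data were slides 1 and 2 only, leaving out 1 cow without the block, and no shift between arrays. Slides 1 and 2 gave 3 genes and 8 probes, with 2775 of 26905 probes called. No shift gave 2 genes and 7 probes. Without the shift the median change of all probes was 0.30 and 11729 probes were called, FABP4 was at -0.06 and ACSL1 at -0.09, and ACSL5 was called higher (0.35, adjusted p 0.0379). With gene means in place of 1 probe, 3 of 8 pairs of members differed, against 0. With 1 probe per gene, leaving out 1 cow gave 0 such pairs, where 5 cows cannot go below an exact p of 0.0625. The cause of these differences was not tested.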
